A study of Mus musculus with 10 samples.

Results

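The 34 genes described here encode enzymes and regulators of cholesterol and fatty acid metabolism, and were taken by their symbols from a count table of 50763 genes. All 34 were present in the table. They comprise 6 enzymes of the mevalonate pathway, 10 enzymes from squalene to cholesterol, 5 genes of sterol sensing, 7 genes of fatty acid synthesis and desaturation, 3 of fatty acid activation and lipolysis, and 3 of lipid carriage and efflux. RNA-seq was performed on lens epithelia of mice at 3 weeks of age. Wild-type (WT) mice gave 3 libraries, OVE853 mice 3 and OVE918 mice 4. All mice were on the FVB/N background, and no treatment was given. Both transgenic families carry a constitutively active human TGF-β1 that a modified αA-crystallin promoter expresses in the lens, and their explants held anterior subcapsular plaques. The whole epithelium was sequenced, not the isolated plaque. A library was a pool from up to 9 mice for WT and OVE853 and from up to 7 mice for OVE918, so that the spread between libraries is a spread between pools. In such bulk tissue, fewer cells of a type and less RNA per cell cannot be told apart.

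Cholesterol is built from acetyl-CoA through mevalonate, farnesyl diphosphate and squalene, and lanosterol is then trimmed to cholesterol in the endoplasmic reticulum. When membrane sterol is low, SCAP escorts the SREBP transcription factors, the products of Srebf1 and Srebf2, to the Golgi for cleavage, and the released fragments switch on the enzymes. INSIG proteins hold SCAP back when sterol is high, and Insig1 is itself a target of this pathway. Lens fiber cell membranes are unusually rich in cholesterol, and inherited or drug-induced blocks of cholesterol synthesis are known to cause cataract.

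Promoter windows were available from RefSeq (build GRCm38.p6) for 27 of the 34 genes, each 300 bases long, from 250 before to 50 after a transcription start. Fdft1, Sqle, Abcg1, Scd2, Scd1, Lpl and Fdps had no window. The SREBP site was searched as TCACNCCAC, the CCAAT box as CCAAT and the GC box as GGGCGG, each on both strands. No occurrence of one motif overlapped another in the members' windows. The SREBP letters were found in 1 of the 27 genes, Hmgcs1, where TCACCCCAC begins 137 bases before the start, against 1.44% of all 27025 genes with a window. CCAAT was found in 21 of the 27 genes, or 77.8%, against 41.1% of all genes with a window. Of the 16 sterol enzymes, 13 had a window, and all 13 held a CCAAT, in 13 of their 16 windows (81.2%). Of the other 18 members, 14 had a window and 8 of these held a CCAAT, in 9 of 22 windows (40.9%), against 37.4% of all 32851 windows. GGGCGG stood in 21 of the 27 genes as well, against 38.2% of all genes. These matches are letters in a window and not measured binding sites. Windows are shown for Hmgcs1, the only member with the SREBP letters, for Mvk, the sterol enzyme with the most CCAAT matches, and for Insig1 and Thrsp, whose differences from WT were large. Capitals mark CCAAT on either strand (ATTGG on the reverse strand) and, in Hmgcs1, the SREBP letters. All are written from 5′ to 3′ in the direction of the gene. They lie at chr13:119690101-119690400 on the plus strand (Hmgcs1), chr5:114444019-114444318 on the plus strand (Mvk), chr5:28071162-28071461 on the plus strand (Insig1) and chr7:97417501-97417800 on the minus strand (Thrsp).
Hmgcs1: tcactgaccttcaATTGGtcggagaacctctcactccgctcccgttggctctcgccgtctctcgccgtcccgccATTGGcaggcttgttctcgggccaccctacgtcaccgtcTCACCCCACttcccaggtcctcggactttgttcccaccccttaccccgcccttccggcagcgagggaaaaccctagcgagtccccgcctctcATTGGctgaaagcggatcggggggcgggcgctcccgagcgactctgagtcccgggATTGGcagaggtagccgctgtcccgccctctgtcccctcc
Mvk: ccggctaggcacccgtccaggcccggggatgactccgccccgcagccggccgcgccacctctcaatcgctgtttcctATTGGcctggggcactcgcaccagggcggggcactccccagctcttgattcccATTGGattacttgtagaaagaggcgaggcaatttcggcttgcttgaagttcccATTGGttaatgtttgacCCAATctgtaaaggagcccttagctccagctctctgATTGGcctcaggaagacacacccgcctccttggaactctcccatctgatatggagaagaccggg
Insig1: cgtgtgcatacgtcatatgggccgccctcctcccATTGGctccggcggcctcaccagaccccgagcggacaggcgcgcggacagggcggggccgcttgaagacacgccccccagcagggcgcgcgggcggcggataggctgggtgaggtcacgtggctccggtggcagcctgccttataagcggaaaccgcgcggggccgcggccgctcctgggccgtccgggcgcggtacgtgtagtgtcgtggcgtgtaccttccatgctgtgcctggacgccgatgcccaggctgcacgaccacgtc
Thrsp: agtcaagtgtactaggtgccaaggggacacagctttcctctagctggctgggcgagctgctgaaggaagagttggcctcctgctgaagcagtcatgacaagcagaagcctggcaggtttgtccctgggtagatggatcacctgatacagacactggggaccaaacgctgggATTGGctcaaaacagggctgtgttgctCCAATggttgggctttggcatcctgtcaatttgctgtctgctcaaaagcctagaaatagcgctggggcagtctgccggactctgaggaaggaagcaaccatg

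Total counts per library lay between 24073311 and 31908525. Counts were scaled with TMM factors, which correct for differences in RNA composition, and are given as CPM, which is the count scaled to a common library size. FPKM values are CPM per kilobase of exon, and are used where levels of different genes are set side by side. The lowest count of a member in any library was 62, for Thrsp. Of the 34 members, 32 reached 2 FPKM in at least 5 of the 10 libraries and were tested, with 11094 genes in all. Hsd17b7 and Abcg1 did not reach this minimum. Genes were tested with edgeR's quasi-likelihood test, and false discovery rates (FDR) were adjusted over all genes tested. A differentially expressed gene (DEG), called elevated or reduced, had to pass an FDR of 0.05 and to change by 1 or more on the log2 scale in either direction. Tgfb1, counted on the mouse gene, was at 50.6, 61.7 and 50.7 CPM in WT, at 361, 339 and 349 CPM in OVE853 and at 881, 715, 717 and 788 CPM in OVE918, which puts every library on the side its label gives. The transgene is human, and how many of its reads were counted on the mouse gene cannot be told from the counts, so these values are not a level of the mouse transcript alone.

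The markers of lens epithelium (Foxe3, Pax6, Cdh1 and Gja1) summed to 1624 to 2148 CPM in WT, 1472 to 1591 CPM in OVE853 and 1172 to 1410 CPM in OVE918. Of these 4, Gja1 and Cdh1 accounted for the lower sum in OVE853, with Gja1 at 512 to 572 CPM in WT and 98.0 to 127 CPM in OVE853, whereas Foxe3 and Pax6 overlapped with WT. In OVE918, Gja1 lay below WT at 55.6 to 79.9 CPM, whereas Foxe3 and Cdh1 overlapped with WT. Pax6 also lay below WT there, at 356 to 402 CPM against 430 to 463 CPM. Lens fiber markers, 8 genes, summed to 5571 to 13780, 10650 to 14310 and 12780 to 14770 CPM, so that RNA of fiber cells was present in every library. The 4 markers of non-pigmented ciliary epithelium summed to 592 to 1061 CPM in WT, 206 to 269 CPM in OVE853 and 48.5 to 114 CPM in OVE918, and each of the 4 lay below WT in every library of both lines. The study had already reported all 4 as reduced in both lines, so this outcome was known when the lists were chosen. Gja1, Cdh1, Rlbp1 and Aldh3a1, from other marker lists, had been reported as reduced too. The 6 Müller glia markers summed to 3769 to 5343 CPM in WT, 2326 to 2659 CPM in OVE853 and 2681 to 3133 CPM in OVE918. Of these 6, 5 lay below WT in every OVE853 library and 4 in every OVE918 library. Most of the sum was Dkk3, at 3052 to 3735, 1834 to 2151 and 2320 to 2788 CPM, while Glul and Aqp4 were lower in every OVE918 library than in every OVE853 library, unlike the sum. The 12 macrophage markers summed to 24.2 to 58.4, 49.8 to 81.4 and 35.1 to 94.5 CPM. Of these 12, 4 lay above WT in every OVE853 library and 1 in every OVE918 library. Only 1, Mrc1, lay below WT in every library of both lines. The 5 cornea markers summed to 237 to 1619, 63.0 to 93.2 and 26.9 to 82.6 CPM, nearly all from Aldh3a1, while the corneal keratin Krt12 had 0 counts in every transgenic library. The 6 adipocyte markers summed to at most 1.51 CPM in any library, and 5 of the 6 stayed under 1 CPM throughout. None of the markers in these lists was at 0 in all 10 libraries. How much these cells contribute to the differences below was not tested.

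WT replicate 3 stood apart from the other two WT libraries in several members. Relative to the mean of WT replicates 1 and 2, it held 2.35 times as much Acsl3, 2.21 times as much Mgll, 2.14 times as much Abcg1, 2.05 times as much Apoe, 1.85 times as much Scd1 and 1.8 times as much Thrsp. The same library held 210 CPM of Rlbp1 and 1061 CPM of Glul, both Müller glia markers, against 29.9 and 35.0 CPM of Rlbp1 and 333 and 330 CPM of Glul in the other WT libraries. It was the highest WT library for 5 of the 6 Müller glia markers, whereas Car14 was lowest there (182 against 338 and 284 CPM). It was also highest for 8 of 12 macrophage, 5 of 7 photoreceptor, 4 of 5 cornea and 3 of 6 adipocyte markers. The counts were 2 of 6 for pigmented epithelium, 2 of 5 for endothelium and 1 of 4 for non-pigmented ciliary epithelium. They were 1 of 8 for lens fiber and 0 of 4 for lens epithelium. The summed lens fiber markers of WT replicate 3 were the lowest of the 10 libraries at 5571 CPM.

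In both transgenic lines the members that differed from WT were almost all lower. Insig1, Scd1, Thrsp, Acsl3, Mgll and Apoe were reduced in both lines and Lpl was reduced in OVE918, whereas no member was elevated in either line. In OVE853, 6 of 32 members were reduced, where 1.91% of all genes tested were reduced and 2.51% elevated. In OVE918, 7 of 32 were reduced, where 3.01% of all genes were reduced and 2.58% elevated. The study had already reported the 6 members reduced in both lines as reduced, and the members were chosen with earlier results known. The counts and medians of the members beside those of all genes are therefore no test of enrichment. No member was higher by at least the fold limit at an unadjusted p of 0.05 in either line, nor by DESeq2 or voom, for which the counts were 0 as well. By FDR alone, 12 members were lower and 1 was higher in OVE853, against 7.68% of all genes lower and 8.1% higher. In OVE918, 13 were lower and 0 higher by FDR alone, against 11% lower and 8% higher among all genes. At an unadjusted p of 0.05, 0 members were higher in OVE918, and DESeq2 and voom each gave 0. The median log2 fold change of the 32 members was −0.26 in OVE853 and −0.32 in OVE918, beside −0.01 and 0.01 over all genes tested. In OVE853, 27 of 32 estimates were below 0, and in OVE918 28 of 32.

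The 2 line comparisons share their WT libraries, so their likeness is not independent evidence. Members lower by FDR in both lines were Mvk, Pmvk, Fdft1, Insig1, Srebf2, Scd1, Thrsp, Acsl3, Mgll, Lpl and Apoe, which is 11 of the 12 lower in OVE853 and 11 of the 13 lower in OVE918. The count in OVE853 rested on single libraries more than that in OVE918. Without WT replicate 3, 3 members in place of 6 were reduced in OVE853 and 6 in place of 7 in OVE918. By FDR alone, 8 members passed in OVE853 without OVE853 replicate 1 and 7 without OVE853 replicate 3, in place of 13.

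**Figure D1:**
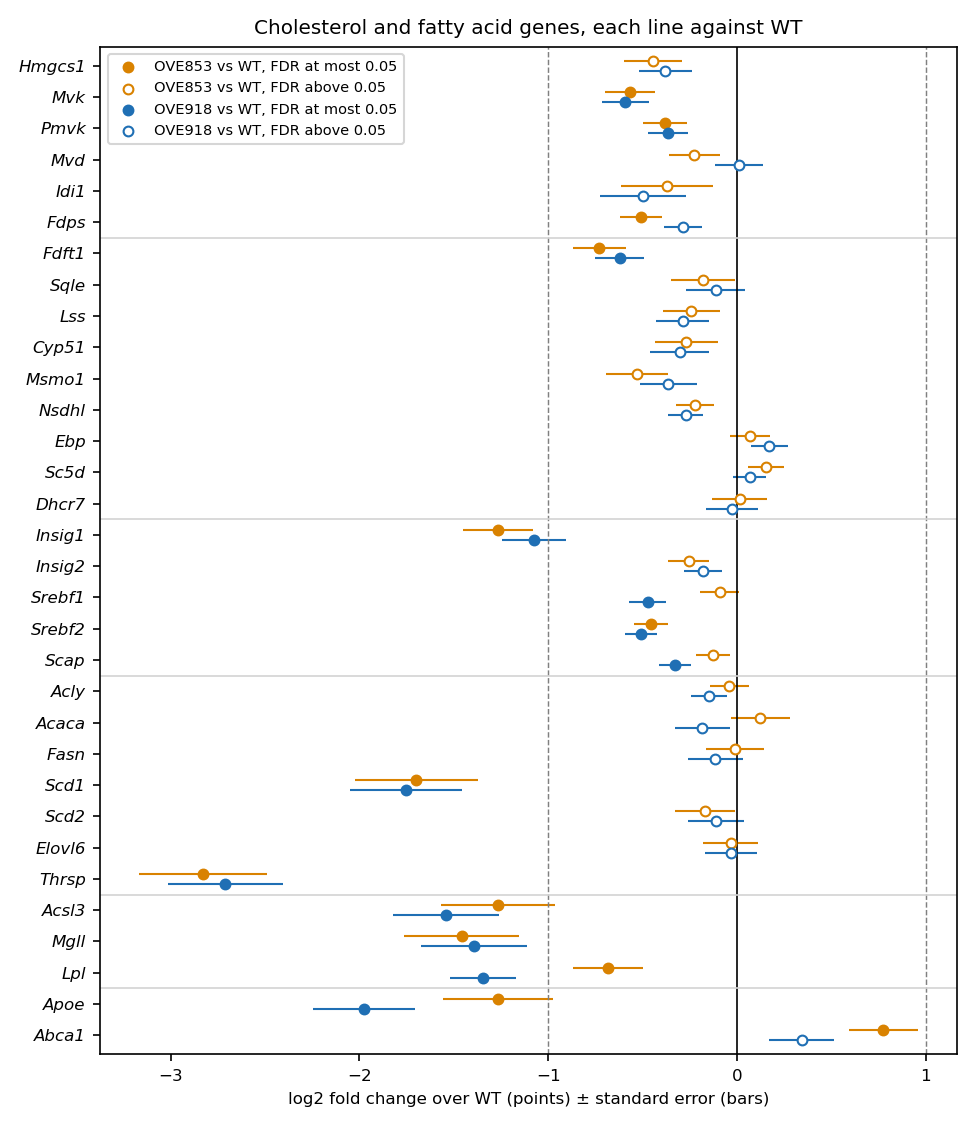
Log2 fold change over WT of the 32 members tested (points, ± standard error as bars) in OVE853 (orange) and OVE918 (blue), in order of role with grey lines between roles. Filled points have an FDR of at most 0.05 and dashed lines mark a log2 fold change of 1 in each direction. Insig1, Scd1, Thrsp, Acsl3, Mgll and Apoe lie beyond the left dashed line in both lines, and the enzymes of sterol synthesis lie between the dashed lines.

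The mevalonate pathway makes farnesyl diphosphate, the branch point between sterols and protein prenylation. Of its 6 members, 3 were lower by FDR in OVE853 and 2 in OVE918. Estimates ranged from −0.56 to −0.23 on the log2 scale for OVE853 and from −0.59 to 0.01 for OVE918, so that none reached the fold limit. Mvk, mevalonate kinase, was at 19.9, 23.4 and 25.6 CPM in WT, at 15.7, 16.9 and 14.0 CPM in OVE853 and at 14.6, 13.4, 15.6 and 17.5 CPM in OVE918. All 7 transgenic libraries were below the lowest WT library. The OVE853 estimate was −0.56 ± 0.13 (SE) on the log2 scale over WT (FDR 0.0174), and the OVE918 estimate −0.59 ± 0.12 (FDR 0.00684). In OVE853 this FDR became 0.0509 without WT replicate 3, 0.0611 without OVE853 replicate 1 and 0.0808 without OVE853 replicate 3.

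Pmvk, the next kinase of the pathway, was at 22.5, 23.8 and 25.2 CPM in WT, 21.2, 17.4 and 16.3 CPM in OVE853 and between 17.0 and 19.9 CPM in OVE918. The groups did not overlap, but the difference was small, with a log2 fold change of −0.38 ± 0.12 in OVE853 (FDR 0.048) and −0.36 ± 0.11 in OVE918 (FDR 0.0382). Its call was lost when single libraries were left out, with an FDR of 0.0903 and 0.0869 in the lines without WT replicate 2, and of 0.124 and 0.106 without WT replicate 3. In OVE853 the FDR was 0.143 and 0.17 without OVE853 replicates 2 and 3, and 0.0706, 0.0523 and 0.0714 without OVE918 replicates 1, 2 and 3. In OVE918 it was 0.0552 without OVE853 replicate 2, and 0.0847, 0.0866 and 0.0742 without OVE918 replicates 1, 2 and 3. Over the 19 alternative fits described below, the FDR of Pmvk was over 0.05 in 12 for OVE853 and 10 for OVE918.

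Fdps, farnesyl diphosphate synthase, was at 51.0, 53.6 and 58.2 CPM in WT, 36.3, 43.3 and 34.9 CPM in OVE853 and 43.9, 39.9, 46.6 and 48.0 CPM in OVE918. Both lines lay below every WT library. Over WT, log2 fold changes of −0.51 ± 0.11 for OVE853 (FDR 0.0121) and −0.28 ± 0.10 for OVE918 (FDR 0.0755) were fitted. In OVE853 the FDR was 0.0588 without OVE853 replicate 1 and 0.059 without OVE853 replicate 3. OVE918 was not shown to differ from OVE853 (log2 fold change 0.22, 95% interval −0.02 to 0.47, FDR 0.223).

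Hmgcs1, which makes HMG-CoA, was the most abundant transcript of the mevalonate enzymes after Fdps in WT, at 26.6 ± 4.39 FPKM (SD, n = 3) beside 41.6 ± 2.80 FPKM for Fdps. It was at 129, 102 and 95.6 CPM in WT, 74.7, 95 and 70.2 CPM in OVE853 and 73.7, 90.5, 93.5 and 76.9 CPM in OVE918. All transgenic libraries were below the lowest WT library, by a narrow margin for the highest of them. Its log2 fold change of −0.44 ± 0.15 in OVE853 and −0.38 ± 0.14 in OVE918 did not pass (FDR 0.0709 and 0.0874). In OVE853 it passed with voom (FDR 0.0176), with DESeq2 (0.0391) and without OVE853 replicate 2 (0.0499). Mvd, which decarboxylates mevalonate diphosphate, had log2 fold changes of −0.23 ± 0.14 and 0.01 ± 0.13. Idi1, the isomerase that follows it, varied more between libraries, from 8.39 to 12.7 CPM in WT, 6.16 to 10.7 CPM in OVE853 and 5.53 to 9.13 CPM in OVE918. Neither Mvd nor Idi1 passed in either line, and both overlapped between groups.

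The enzymes from squalene to cholesterol included 1 that fell in both lines, Fdft1. Fdft1, squalene synthase, makes the first step that leads only to sterols. It was at 81.3, 68.6 and 80.5 CPM in WT, 43.3, 56.0 and 39.7 CPM in OVE853 and 51.2, 42.5, 53.0 and 53.1 CPM in OVE918. The gap between the lowest WT library and the highest transgenic library was 68.6 against 56.0 CPM. The fitted log2 difference from WT, −0.73 ± 0.14 for OVE853 (FDR 0.00681) and −0.62 ± 0.13 for OVE918 (FDR 0.00683), was the largest of the 15 sterol enzymes tested in each line.

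Msmo1, a methylsterol oxidase, was at 35.9, 25.4 and 29.7 CPM in WT, 19.0, 25.5 and 18.7 CPM in OVE853 and 21.8, 21.6, 23.2 and 27.8 CPM in OVE918, so that the ranges met. In OVE853 its log2 fold change of −0.53 ± 0.16 had an FDR of 0.0517, which was 0.0405 without WT replicate 2, 0.0359 without OVE853 replicate 2 and 0.0353 without OVE918 replicate 4. In OVE918 it was −0.36 ± 0.15 (FDR 0.124). Nsdhl, a sterol dehydrogenase, did not pass in OVE853 (−0.22 ± 0.10 on the log2 scale, FDR 0.144) or in OVE918 (−0.27 ± 0.09, FDR 0.0678), and all its libraries of both lines lay below the lowest WT library, at 25.7 CPM. With voom it passed in both (FDR 0.0176 and 0.031). Sqle (squalene epoxidase), Lss (lanosterol synthase) and Cyp51 (lanosterol demethylase) had log2 fold changes between −0.30 and −0.11, with standard errors between 0.14 and 0.17, and passed in neither line.

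For the last steps of the pathway the estimates lay close to 0 or above it. For Ebp, a sterol isomerase, the OVE853 estimate was 0.07 ± 0.11 on the log2 scale and the OVE918 estimate 0.17 ± 0.10. Sc5d, sterol desaturase, had 0.15 ± 0.09 and 0.07 ± 0.09, and Dhcr7, which makes cholesterol from its immediate precursor, had 0.01 ± 0.15 and −0.03 ± 0.14. None passed, and the 95% interval of Dhcr7, −0.33 to 0.36 in OVE853 and −0.35 to 0.30 in OVE918, still holds changes of the size fitted for Nsdhl. Hsd17b7, a ketosteroid reductase of the same pathway, lay under the FPKM minimum at 9.66, 7.66 and 7.85 CPM in WT, 4.83, 5.71 and 5.28 CPM in OVE853 and 5.05, 5.40, 4.35 and 4.61 CPM in OVE918. Its groups did not overlap. With edgeR's filterByExpr as the filter, under which 18058 genes were tested, it was lower than WT in OVE853 (−0.66 ± 0.17 on the log2 scale, FDR 0.0288) and in OVE918 (−0.77 ± 0.16, FDR 0.00702).

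Over the 16 sterol enzymes together, summed levels were 670, 567 and 573 CPM in WT, 460, 545 and 420 CPM in OVE853 and 467, 472, 528 and 494 CPM in OVE918. Every transgenic library was below every WT library, and the means were 603 ± 57.8, 475 ± 63.6 and 490 ± 27.7 CPM (SD, n = 3, 3 and 4). Of the 15 tested, 4 fell in OVE853 and 3 in OVE918, and 0 were reduced by the fold limit, also at an unadjusted p of 0.05, in DESeq2 and in voom. These shares, 4 of 15 and 3 of 15, stand beside the 7.68% and 11% of all genes that were lower by FDR alone. In WT, replicate 1 was the highest of the 10 libraries for 9 of the 16 enzymes. Within OVE853, replicate 2 was the highest for 13 of 16 and replicate 3 the lowest for 14 of 16. The lens fiber markers summed to 14310 CPM in OVE853 replicate 2, to 12380 CPM in replicate 1 and to 10650 CPM in replicate 3, the same order as the sterol sums. In the other groups the orders of the sums differed, with fiber sums of 14770, 12780, 13910 and 14430 CPM in OVE918 replicates 1 to 4, where the highest belonged to the library with the lowest sterol sum, and of 13780, 9161 and 5571 CPM in WT, where replicate 3 exceeded replicate 2 in the sterol sum. The part of lens fiber RNA in the level of the sterol enzymes was not tested.

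**Figure D2:**
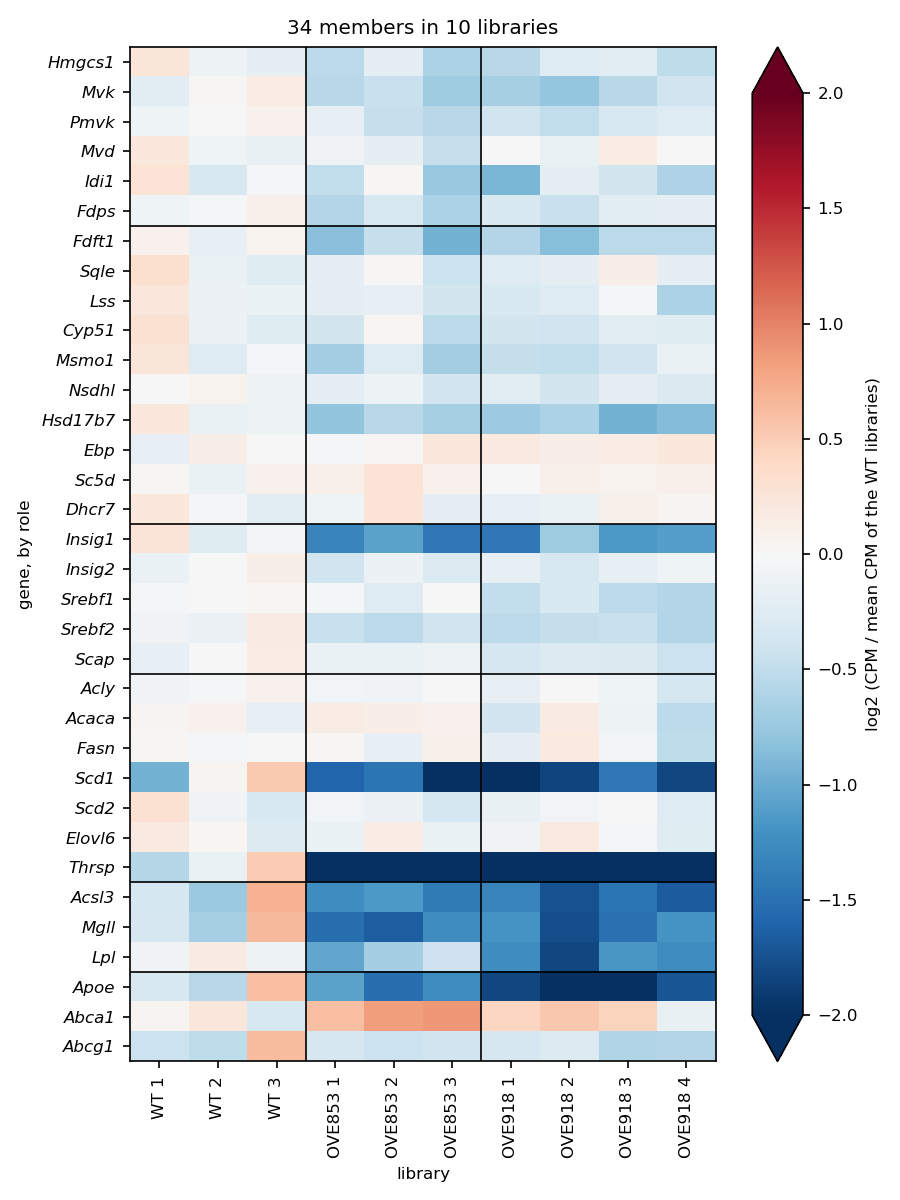
Level of each of the 34 members (rows, by role, with black lines between roles) in each of the 10 libraries (columns), as log2 of its CPM over the mean CPM of the 3 WT libraries, on a color scale that ends at −2 and 2. Insig1, Scd1, Thrsp, Acsl3, Mgll, Lpl and Apoe are blue in all 7 transgenic libraries, Abca1 is red in all but OVE918 replicate 4, and WT replicate 3 is red for Scd1, Thrsp, Acsl3, Mgll, Apoe and Abcg1.

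Of the 5 sterol sensing genes, Insig1 was the one reduced in both lines, while Srebf2 was lower in both by FDR. Insig1 (GRCm39 chr5:28276315-28283668, plus strand), which retains SCAP and the SREBPs in the endoplasmic reticulum, was at 165, 116 and 132 CPM in WT, 54.9, 65.4 and 51.3 CPM in OVE853 and 50.9, 84.2, 62.1 and 64.1 CPM in OVE918. The highest transgenic library stood at 84.2 CPM and the lowest WT library at 116 CPM. This gave −1.27 ± 0.19 as the log2 fold change of OVE853 over WT (2.40-fold lower, FDR 0.0014) and −1.07 ± 0.17 as that of OVE918 (2.10-fold lower, FDR 0.0013). In OVE918 it was under the fold limit without WT replicate 1 (−0.93, FDR 0.00419) and without OVE918 replicate 1 (−0.97, FDR 0.00387). WT replicate 3 did not stand out for this gene, at 0.942 times the mean of the other WT libraries.

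Insig2, the second INSIG gene, was at 34.3, 37.3 and 40.8 CPM in WT and between 28.5 and 35.4 CPM in the 2 lines. Its log2 fold change was −0.26 ± 0.11 in OVE853 and −0.18 ± 0.10 in OVE918 (FDR 0.122 and 0.236), and in OVE853 it passed with voom (FDR 0.0258). Per length, Insig1 stood at 4.01 ± 1.02 times Insig2 in WT, 1.97 ± 0.16 times in OVE853 and 2.16 ± 0.61 times in OVE918 (ratio of FPKM, SD). The highest OVE918 library, at 3.04, remained below the lowest WT library, at 3.35.

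Srebf2, whose product mainly drives sterol synthesis genes, was at 139, 135 and 163 CPM in WT, 107, 102 and 110 CPM in OVE853 and 101, 105, 107 and 97.3 CPM in OVE918. The spread within each line was small and all transgenic libraries were below WT. Fitted log2 fold changes over WT were −0.45 ± 0.09 for OVE853 (FDR 0.00869) and −0.51 ± 0.08 for OVE918 (FDR 0.00189). Srebf1, whose product mainly drives fatty acid synthesis genes, was at 314, 319 and 326 CPM in WT, 313, 269 and 319 CPM in OVE853 and 227, 259, 223 and 212 CPM in OVE918. OVE853 overlapped WT and OVE918 did not. On the log2 scale, OVE853 stood at −0.09 ± 0.10 relative to WT (FDR 0.559) and OVE918 at −0.47 ± 0.10 (FDR 0.0063). The direct comparison of OVE918 with OVE853 gave −0.38, with a 95% interval of −0.61 to −0.15 and an FDR of 0.0779, so that Srebf1 was not shown to differ between the lines. Without OVE918 replicate 2 that FDR was 0.0396.

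Scap, the escort of the SREBPs, was at 69.2, 78.0 and 86.1 CPM in WT, 71.0, 70.7 and 72.1 CPM in OVE853 and 61.9, 64.4, 63.5 and 58.0 CPM in OVE918. It was lower in OVE918 (log2 fold change −0.33 ± 0.09, FDR 0.0221) and not shown to differ in OVE853 (−0.13 ± 0.09, FDR 0.351). In OVE918 the FDR was 0.0561 without WT replicate 2, 0.0739 without WT replicate 3 and 0.0535 without OVE918 replicate 1. It was over 0.05 in 6 of the 19 alternative fits. Per length, Srebf1 stood at 3.09 ± 0.26 times Srebf2 in WT, 3.95 ± 0.21 times in OVE853 and 3.14 ± 0.22 times in OVE918.

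Among the genes of fatty acid synthesis, none of the core enzymes passed the test, whereas Thrsp and Scd1 were reduced in both lines. Acly, which makes cytosolic acetyl-CoA from citrate, was at 185 to 206 CPM in WT, 184 to 194 CPM in OVE853 and 151 to 194 CPM in OVE918. For Acaca, which makes malonyl-CoA, log2 estimates over WT were 0.12 ± 0.16 for OVE853 and −0.18 ± 0.15 for OVE918. Fasn, fatty acid synthase, had −0.01 ± 0.15 and −0.11 ± 0.14, with 95% intervals of −0.38 to 0.36 and −0.46 to 0.23. Elovl6, which elongates palmitate, had −0.03 ± 0.15 and −0.03 ± 0.14. None of these passed in either line, with FDR values between 0.32 and 0.972. OVE918 replicate 4 was the lowest of the 10 libraries for Acly, Acaca and Fasn, at 151, 47.4 and 161 CPM.

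Thrsp (GRCm39 chr7:97062139-97066937, minus strand), a small regulator of fatty acid synthesis that is known from liver and fat, had the largest difference of all members. It was at 14.1, 19.1 and 29.9 CPM in WT, 2.54, 3.89 and 2.49 CPM in OVE853 and 4.88, 2.68, 2.45 and 2.86 CPM in OVE918. The lowest WT library was well above the highest transgenic library. The OVE853 estimate was −2.83 ± 0.34 on the log2 scale over WT (7.10-fold lower, FDR 0.000418), and the OVE918 estimate −2.71 ± 0.30 (6.55-fold lower, FDR 0.000161). Without WT replicate 3, the highest WT library, it was −2.49 and −2.37. The adipocyte markers, which belong to a tissue where Thrsp is abundant, summed to 0.96 to 1.51 CPM in WT, 0.33 to 0.65 CPM in OVE853 and 0.26 to 0.71 CPM in OVE918.

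Scd1 and Scd2 are stearoyl-CoA desaturases that make monounsaturated fatty acids. Scd1 (GRCm39 chr19:44382894-44399154, minus strand) was at 15.8, 31.7 and 43.9 CPM in WT, 10.2, 11.1 and 6.94 CPM in OVE853 and 7.62, 8.57, 11.3 and 8.67 CPM in OVE918. WT libraries were far apart, but none was as low as the highest transgenic library. Over WT, log2 fold changes of −1.70 ± 0.32 for OVE853 (3.24-fold lower, FDR 0.00722) and −1.75 ± 0.30 for OVE918 (3.37-fold lower, FDR 0.00225) were fitted. Without WT replicate 3 it was −1.34 and −1.40. Scd2 (GRCm39 chr19:44281613-44295303, plus strand), the neighboring gene, was at 2189, 1688 and 1426 CPM in WT and between 1389 and 1755 CPM in the transgenic libraries. It was not shown to differ from WT in OVE853 (−0.17 ± 0.16 on the log2 scale, FDR 0.473) or in OVE918 (−0.11 ± 0.15, FDR 0.644). Scd1 made up 2.39 ± 1.46% of the summed FPKM of both genes in WT, 0.765 ± 0.114% in OVE853 and 0.713 ± 0.099% in OVE918. The 2 genes are close paralogs, so that the split of reads between them is uncertain.

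Fatty acid activation and lipolysis was the group in which all 3 members fell in both lines. Acsl3 (GRCm39 chr1:78635537-78685461, plus strand) activates fatty acids to acyl-CoA and sits on lipid droplets. It was at 101, 77.7 and 210 CPM in WT, 54.7, 58.4 and 49.1 CPM in OVE853 and 51.4, 38.6, 47.3 and 41.0 CPM in OVE918. Even the lowest WT library exceeded every transgenic library. This gave −1.26 ± 0.30 as the log2 fold change of OVE853 over WT (FDR 0.0209) and −1.54 ± 0.28 as that of OVE918 (FDR 0.00357). Without WT replicate 3 it was −0.73 in OVE853 (FDR 0.00962), which is under the fold limit, and −1.01 in OVE918. In OVE853 the FDR was 0.0709, 0.0551 and 0.0797 without OVE853 replicates 1, 2 and 3.

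Mgll (GRCm39 chr6:88652108-88805342, plus strand), monoacylglycerol lipase, which also degrades the endocannabinoid 2-arachidonoylglycerol, was at 42.3, 33.7 and 84.0 CPM in WT, 18.7, 17.0 and 22.6 CPM in OVE853 and 23.2, 15.5, 19.0 and 23.6 CPM in OVE918. The groups did not overlap. Fitted log2 fold changes over WT were −1.46 ± 0.31 for OVE853 (FDR 0.0114) and −1.39 ± 0.28 for OVE918 (FDR 0.00619). Without WT replicate 3 it was −0.97 (FDR 0.00775) and −0.90 (FDR 0.00537), under the fold limit in both lines, and without OVE853 replicate 1 the FDR in OVE853 was 0.0508.

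Lpl (GRCm39 chr8:69284603-69360100, plus strand), lipoprotein lipase, which releases fatty acids from circulating triglyceride, was at 56.0, 66.4 and 55.0 CPM in WT, 28.9, 37.0 and 44.6 CPM in OVE853 and 25.1, 16.8, 26.3 and 25.1 CPM in OVE918. The 3 groups were separate from one another, with OVE853 between WT and OVE918. On the log2 scale, OVE853 stood at −0.68 ± 0.19 relative to WT (FDR 0.033) and OVE918 at −1.34 ± 0.17 (2.54-fold lower, FDR 0.000374). In OVE853 the FDR was 0.0922 without WT replicate 2, 0.126 without OVE853 replicate 1 and 0.0944 without OVE853 replicate 2. Between the lines the log2 fold change was −0.66 with a 95% interval of −1.07 to −0.25 and an FDR of 0.0816. WT replicate 3 was the lowest WT library for Lpl.

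**Figure D3:**
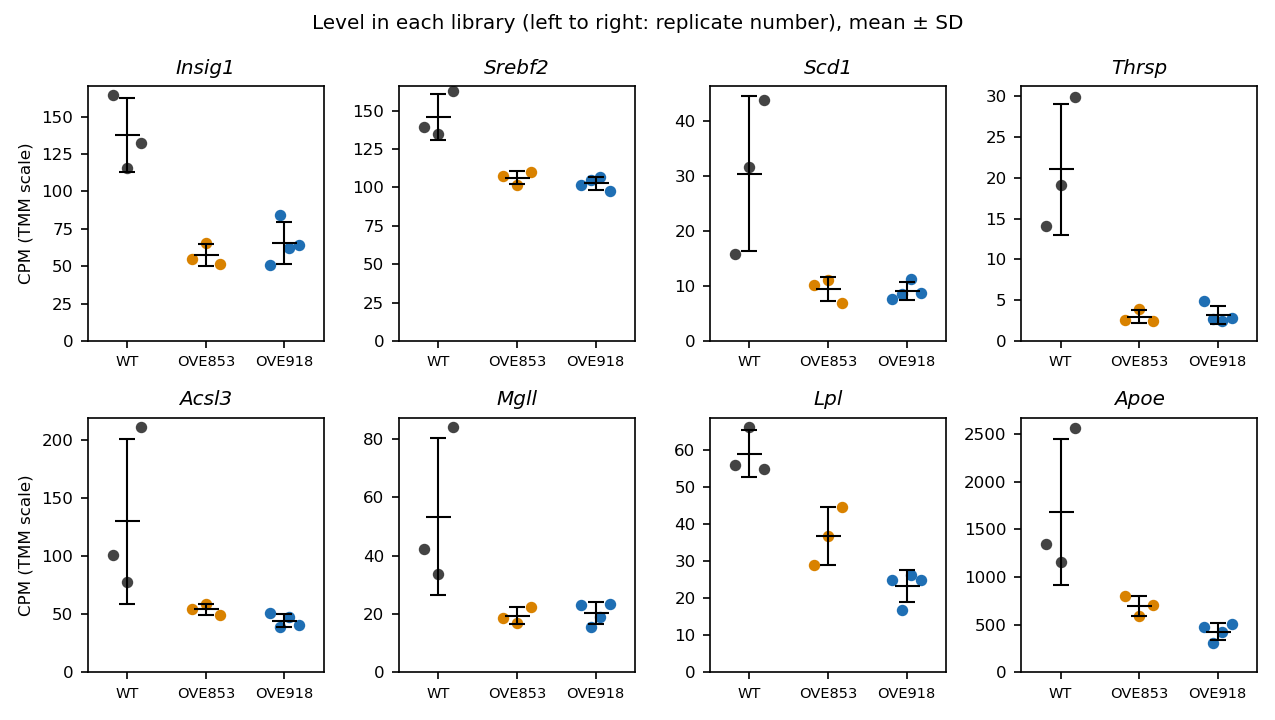
CPM in each library (points) of 8 members lower by FDR in both lines, with the mean and SD of each group in black and axes that start at 0. In every panel the 7 transgenic libraries lie below the lowest WT library, and WT replicate 3 (the right point of each WT group) is the highest WT library for Srebf2, Scd1, Thrsp, Acsl3, Mgll and Apoe.

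Of the carriage and efflux genes, Apoe was reduced and Abca1 was the one member that was higher. Apoe (GRCm39 chr7:19430034-19434947, minus strand), the lipid carrier apolipoprotein E, had the highest level per length of all members in WT, at 772 ± 350 FPKM, ahead of Scd2 at 271 ± 59.4 FPKM and Srebf1 at 73.6 ± 1.32 FPKM. In CPM it was at 1342, 1152 and 2559 in WT, 803, 595 and 704 in OVE853 and 476, 305, 420 and 513 in OVE918. The 3 groups were separate, and OVE853 lay between WT and OVE918. The OVE853 estimate was −1.27 ± 0.29 on the log2 scale over WT (2.40-fold lower, FDR 0.0162), and the OVE918 estimate −1.98 ± 0.27 (3.93-fold lower, FDR 0.000568). Without WT replicate 3 it was −0.83 in OVE853 (FDR 0.0232), under the fold limit, and −1.54 in OVE918. In OVE853 the FDR was 0.0683 and 0.0604 without OVE853 replicates 2 and 3. Between the lines it was −0.71, with a 95% interval of −1.34 to −0.08 and an FDR of 0.161, and of 0.0461 without WT replicate 3. Apoe is also made by glia and macrophages, whose marker sums in these groups are given above, and the part of those cells in this difference was not tested.

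Abca1, which passes cholesterol from cells to apolipoproteins, was at 33.5, 37.5 and 25.7 CPM in WT, 48.9, 57.7 and 59.1 CPM in OVE853 and 43.3, 47.0, 43.9 and 29.2 CPM in OVE918. All OVE853 libraries and 3 of the 4 OVE918 libraries were above WT. Over WT, log2 fold changes of 0.78 ± 0.18 for OVE853 (1.71-fold higher, FDR 0.0178) and 0.34 ± 0.17 for OVE918 (FDR 0.194) were fitted. The FDR in OVE853 was 0.0634 and 0.0745 without OVE853 replicates 2 and 3, and that in OVE918 was 0.036 without OVE918 replicate 4. Leaving out WT replicate 3, the lowest WT library for Abca1, gave log2 fold changes of 0.635 (FDR 0.0479) and 0.202 (FDR 0.503). Between the lines the difference of −0.43 (95% interval −0.83 to −0.03) had an FDR of 0.173. Abcg1, a sterol transporter that lay under the FPKM minimum, was at 10.0, 9.54 and 20.9 CPM in WT and between 8.88 and 11.1 CPM in the transgenic libraries, and with filterByExpr it passed neither in OVE853 (−0.37 ± 0.25 on the log2 scale, FDR 0.335) nor in OVE918 (−0.42 ± 0.24, FDR 0.252). WT replicates 1 and 2 lay within the range of the transgenic libraries, so that WT replicate 3 alone stood above it.

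In the comparison of OVE918 with OVE853, 0 of the 32 members passed an FDR of 0.05 with edgeR, where 0.379% of all genes were higher and 0.937% lower. At an unadjusted p of 0.05, 5 members were lower in OVE918 (Abca1, Apoe, Lpl, Scap and Srebf1) and 0 were higher. DESeq2 gave 2 members lower, Srebf1 and Lpl, and voom gave 5 lower and 1 higher. With edgeR, 1 member passed without WT replicate 3 (Apoe) and 1 without OVE918 replicate 2 (Srebf1). The 95% intervals of Insig1 (−0.21 to 0.60), Scd1 (−0.77 to 0.66) and Thrsp (−0.64 to 0.87) leave room for differences between the lines in either direction.

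**Figure D4:**
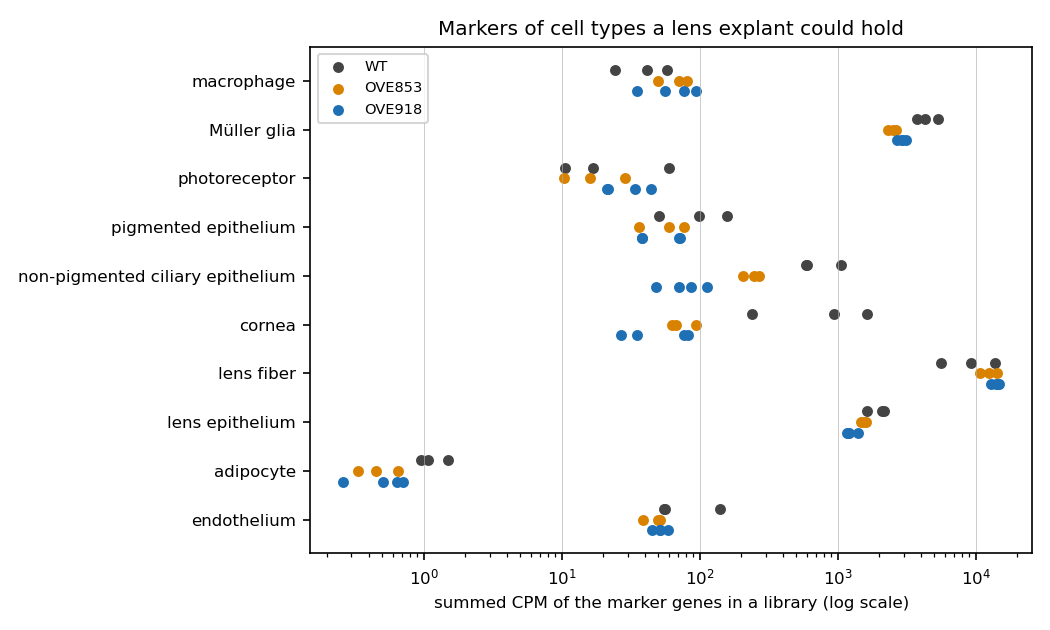
Summed CPM of the marker genes of 10 cell types (rows) in each library (points), on a log axis, with WT in gray, OVE853 in orange and OVE918 in blue. The sums for non-pigmented ciliary epithelium and for Müller glia lie lower in both lines than in WT, and most of the Müller glia sum is Dkk3. The adipocyte sum stays at or below 1.51 CPM.

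Another 83 genes of sterol and fatty acid metabolism, outside the members, were read from the same fit, and 58 of them were tested. By FDR alone, 5 were higher and 10 lower in OVE853, and 8 were higher and 16 lower in OVE918, with median log2 fold changes of −0.11 and −0.12. These counts and those of the groups below stand beside 8.1% of all genes higher and 7.68% lower in OVE853, and 8% higher and 11% lower in OVE918. The 15 in OVE853 became 9 without OVE853 replicate 1. Of 19 other sterol genes tested, 4 were higher and 3 lower in OVE853, and 4 higher and 5 lower in OVE918. Of 13 other fatty acid synthesis genes, 2 were lower in OVE853, whereas 4 were lower and 1 was higher in OVE918. Of 11 genes of fatty acid oxidation, 3 were lower in OVE853, whereas 2 were lower and 1 was higher in OVE918. Of 9 triglyceride storage genes, 1 was lower in OVE853, whereas 3 were lower and 1 was higher in OVE918. Of 6 other genes of fatty acid activation and transport, 1 was higher and 1 lower in OVE853, and 1 higher and 2 lower in OVE918.

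The genes named next were chosen after their values were seen. Fads2, the first desaturase of polyunsaturated fatty acids, was lower in both lines by FDR (−0.97 ± 0.10 and −1.29 ± 0.09), and passed the fold limit in OVE918. Ch25h, cholesterol 25-hydroxylase, whose oxysterol product holds back SREBP processing, was elevated in OVE853, from 2.55, 0.50 and 1.37 CPM in WT to 11.4, 6.41 and 9.80 CPM (log2 fold change 2.66 ± 0.49, FDR 0.00621). In OVE918 it was at 5.01, 2.05, 4.94 and 4.43 CPM (1.5 ± 0.47, FDR 0.0504), with an FDR of 0.0131 without WT replicate 1 and of 0.0249 without OVE918 replicate 2.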

How the data were processed

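The deposited counts are whole numbers of read pairs per gene, without normalization. Per the labels and the study's methods, the authors used Cutadapt 5.2 for trimming paired reads of 150 bases, STAR 2.7.11b for alignment to GRCm39 and featureCounts 2.0.8 for reverse-stranded counting on RefSeq genes. Samples were grouped by the titles that the authors deposited. Library totals of 24073311 to 31908525 counts and the spread between pools of mice limit the precision, and p-values take in both counting error and that spread. In the 12 pairs of libraries within a group, chi-square per degree of freedom was 20.1 to 214, so that no library was a copy of another.

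Counts were fitted in R 4.3.3 with edgeR 4.0.16 (TMM, robust quasi-likelihood, all 10 libraries, 3 groups) and Benjamini-Hochberg adjustment within each contrast. Genes needed 2 FPKM in 5 libraries, with exon lengths of GENCODE vM39 matched by symbol (43252 genes) or synonym (22 genes), while 7489 genes had none. A library was scaled by its total of tested genes and its TMM factor. SE is the log2 fold change over the square root of F, and SD is over libraries. The steps were tested on simulated data. Alternatives were DESeq2 1.42.0, voom with sample weights (limma 3.58.1), upper-quartile factors, other filters, non-robust estimation, only the groups compared, a replicate block and leaving out each library. The members and the lists were chosen with earlier results of these data known. All members are named. The rule for the other lipid genes named those that are DEGs in both lines, whose values are not reported here, and the ones in the text are marked as chosen after their values were seen. Promoters are RefSeq windows of GRCm38.p6, and gene positions are GENCODE positions on GRCm39.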

Additional observations from a re-analysis of the deposited data

Results flagged for a closer look

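Among the 34 members, a library far from the others of its group was looked for in OVE918, the only group of 4, with Dixon's test, which chance alone passes in about 1 of 20 groups. There were 3 such values in 34 groups. Sqle stood at 43.5 CPM in OVE918 replicate 3, where the other libraries lay between 33.5 and 35.1 CPM. Thrsp stood at 4.88 CPM in OVE918 replicate 1, where the others lay between 2.45 and 2.86 CPM. Lpl stood at 16.8 CPM in OVE918 replicate 2, where the others lay between 25.1 and 26.3 CPM. Without that library, each of the 3 genes kept its side of the FDR limit against WT in OVE918.

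Dbi, acyl-CoA binding protein, differed between the lines, with a log2 fold change of 0.964 ± 0.20 for OVE918 over OVE853 (edgeR FDR 0.0485). It was at 470, 554 and 622 CPM in WT, 396, 372 and 334 CPM in OVE853 and 848, 463, 679 and 875 CPM in OVE918. Against WT it passed in neither line (−0.58, FDR 0.0854, and 0.38, FDR 0.206). Its FDR ranged from 0.000203 to 0.232 over 19 alternatives and was over 0.05 in 11 of them, among them the fits without OVE853 replicate 1 (0.183), replicate 2 (0.144) and replicate 3 (0.232), without OVE918 replicate 1 (0.123), replicate 3 (0.085) and replicate 4 (0.0929), and without WT replicate 2 (0.0698).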

How the results depend on the processing

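The members that passed by FDR against WT kept their direction under all 19 alternatives, 13 in each line, and 5 of the 13 in OVE853 and 11 of the 13 in OVE918 passed under every one. Of the 19 members that did not pass in each line, 15 in OVE853 and 17 in OVE918 passed under no alternative, while 7 in OVE853 and 5 in OVE918 changed sign under some alternative. The count of members reduced in OVE853 (6) was 3 with voom and sample weights, and lay between 3 and 6 when single libraries were left out. That by FDR alone in OVE853 (13) lay between 7 and 14, and in OVE918 (13) between 11 and 14. The count reduced in OVE918 (7) was 5 with voom and lay between 6 and 7 when single libraries were left out. Between the lines, 0 members passed by FDR, against 2 with DESeq2, 6 with voom and 0 to 1 without single libraries (1 without WT replicate 3 and 1 without OVE918 replicate 2). Of the other lipid genes, 15 passed in OVE853, against 23 with DESeq2, 31 with voom and 9 to 22 without single libraries (9 without OVE853 replicate 1). The causes were not tested. With voom, Acsl3, Mgll and Apoe were under the fold limit in OVE853 and Acsl3 and Mgll in OVE918.

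Libraries with the same replicate number did not deviate together (correlations of −0.303 to 0.0838), so the numbers do not pair the libraries. With a replicate block, 5 members were reduced in OVE853 and 7 in OVE918, and 10 and 12 passed by FDR. With 3 or 4 pools per group, and 62 counts in the lowest library of Thrsp, small differences such as those of Pmvk stand at the limit of what the spread between pools allows.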
